A study of Arabidopsis thaliana with 12 samples.

Results

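The 60 Arabidopsis thaliana genes described here were higher after staurosporine followed by ascorbate than after water followed by staurosporine, in each of 3 array pairs. They were chosen for that pattern, out of 691 loci that have a probe listed with a single gene. Loci with a reading of 0 on any array and the 60 brightest loci by mean intensity were set aside, which left 451 eligible loci. A locus was taken where the quantile-normalized log2 value with ascorbate exceeded that with staurosporine by at least 0.4 in the arrays numbered 1 and 2, in those numbered 3 and 4 and in those numbered 5 and 6. A further 14 loci described elsewhere by function were left out by name. Of these, 5 met every other condition, namely RIQ2, PIFI, SIRB, KARI and NADP-MDH. The differences between the groups thus fixed who is a member, and they are given as a description with no test.

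Total RNA of wild-type Columbia 0 plants was measured on 12 arrays of 3439 probes, 6 arrays in each of 2 groups. For the ascorbate group, 4 h of staurosporine (2 µM per the labels) preceded 4 h of 25 mM ascorbate. For the staurosporine group, 4 h in water preceded 4 h of staurosporine, for which the labels give 25 mM, a dose that may be a slip because it equals that of ascorbate. A pH of 5.5 was given for both groups. All plants had staurosporine and no group was free of it. Staurosporine also came earlier in the ascorbate group, and its labelled dose differed between the groups. The effects of its timing, of its dose if the labels hold, and of ascorbate thus cannot be told apart. Whether the 6 arrays of a group stand for separate plants is not labelled.

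Staurosporine is an alkaloid that occupies the ATP site of many protein kinases and so blocks phosphorylation broadly. Ascorbate is the most abundant soluble antioxidant of plant cells. In leaves it removes hydrogen peroxide through ascorbate peroxidase, serves as a cofactor of dioxygenases and of violaxanthin de-epoxidase, and is known to alter the transcript levels of nuclear genes. Of the 60 members, all annotated as protein-coding, 3 carry a gene symbol in the annotation used, and the other 57 are known here by their locus tags alone and are given no role. The named members are SECE1 (AT4G14870), a subunit of the Sec translocase that moves proteins into plastid membranes, GLR2.7 (AT2G29120), a glutamate receptor-like cation channel, and SWAP70 (AT2G30880). Symbols are carried by 12.9% of the eligible loci and 5% of the members. The eligible loci include PIFI and SIRB, which carry symbols, so leaving these out by name itself lowered the members' share.

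Levels are deposited intensities in relative units, and differences are on the quantile-normalized log2 scale as ascorbate minus staurosporine unless another scale is named. Intensities ran up to 100, and 10.3% to 17.3% of the probes of an array read exactly 0. Array medians were 0.437 and 0.431 on ascorbate arrays 1 and 2, against 0.392 and 0.392 on staurosporine arrays 1 and 2. They were 0.355 and 0.351 on ascorbate arrays 3 and 4, against 0.173 and 0.169 on staurosporine arrays 3 and 4. They were 0.486 and 0.483 on ascorbate arrays 5 and 6, against 0.228 and 0.227 on staurosporine arrays 5 and 6. The groups thus had similar medians in the first pair, while staurosporine arrays 3 to 6 had lower medians than ascorbate arrays 3 to 6. The highest intensity was not lower there, at 100 on staurosporine arrays 3 to 6, against 69.0 and 65.9 on ascorbate arrays 5 and 6. The part of these shifts in the members' values was not tested. Consecutive arrays of a group were close (Spearman correlations of 0.889 to 0.983 across features), so 3 pair averages, with their mean ± SD, accompany the levels. Of the fixed marker lists, 5 of 17 leaf photosynthesis genes had a single-gene probe and none read 0 on any array, with a summed intensity of 37.4 to 78.0 on ascorbate arrays and 60.8 to 94.8 on staurosporine arrays, most of it from the photosystem II gene PSBW. None of the 18 listed root, flower and seed genes was measured by a single-gene probe, so other organs were not checked.

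**Figure D1:**
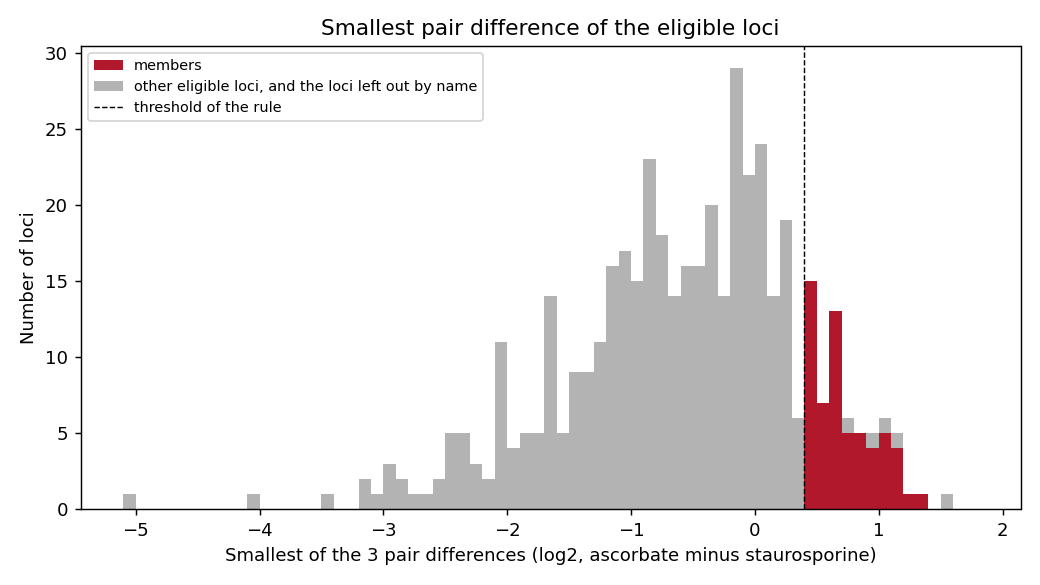
Number of eligible loci (vertical axis) by the smallest of their 3 pair differences (horizontal axis, log2, ascorbate minus staurosporine), with members in red and all other eligible loci in grey. Members lie at or right of the threshold of 0.4, with 15 of the 60 under 0.5, and the few grey loci to the right of it are those left out by name.

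The threshold cuts a continuous distribution, as the histogram of smallest pair differences shows. Just inside it were AT3G56130 (smallest difference 0.402), AT3G07790 (0.403), AT5G17840 (0.408) and AT2G14660 (0.414). Just outside were AT2G19870 (0.393), AT5G40470 (0.384), AT2G46850 (0.378) and AT3G16310 (0.372). AT2G14660 and AT2G19870, on opposite sides of the threshold, had like patterns, with differences of 0.41, 1.67 and 1.78 for the member and 0.39, 1.92 and 1.96 for the locus left outside. Of the 60 members, 11 differed by at least 1 in every pair, 34 had a smallest difference from 0.5 to under 1, and 15 lay between 0.4 and 0.5.

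**Figure D2:**
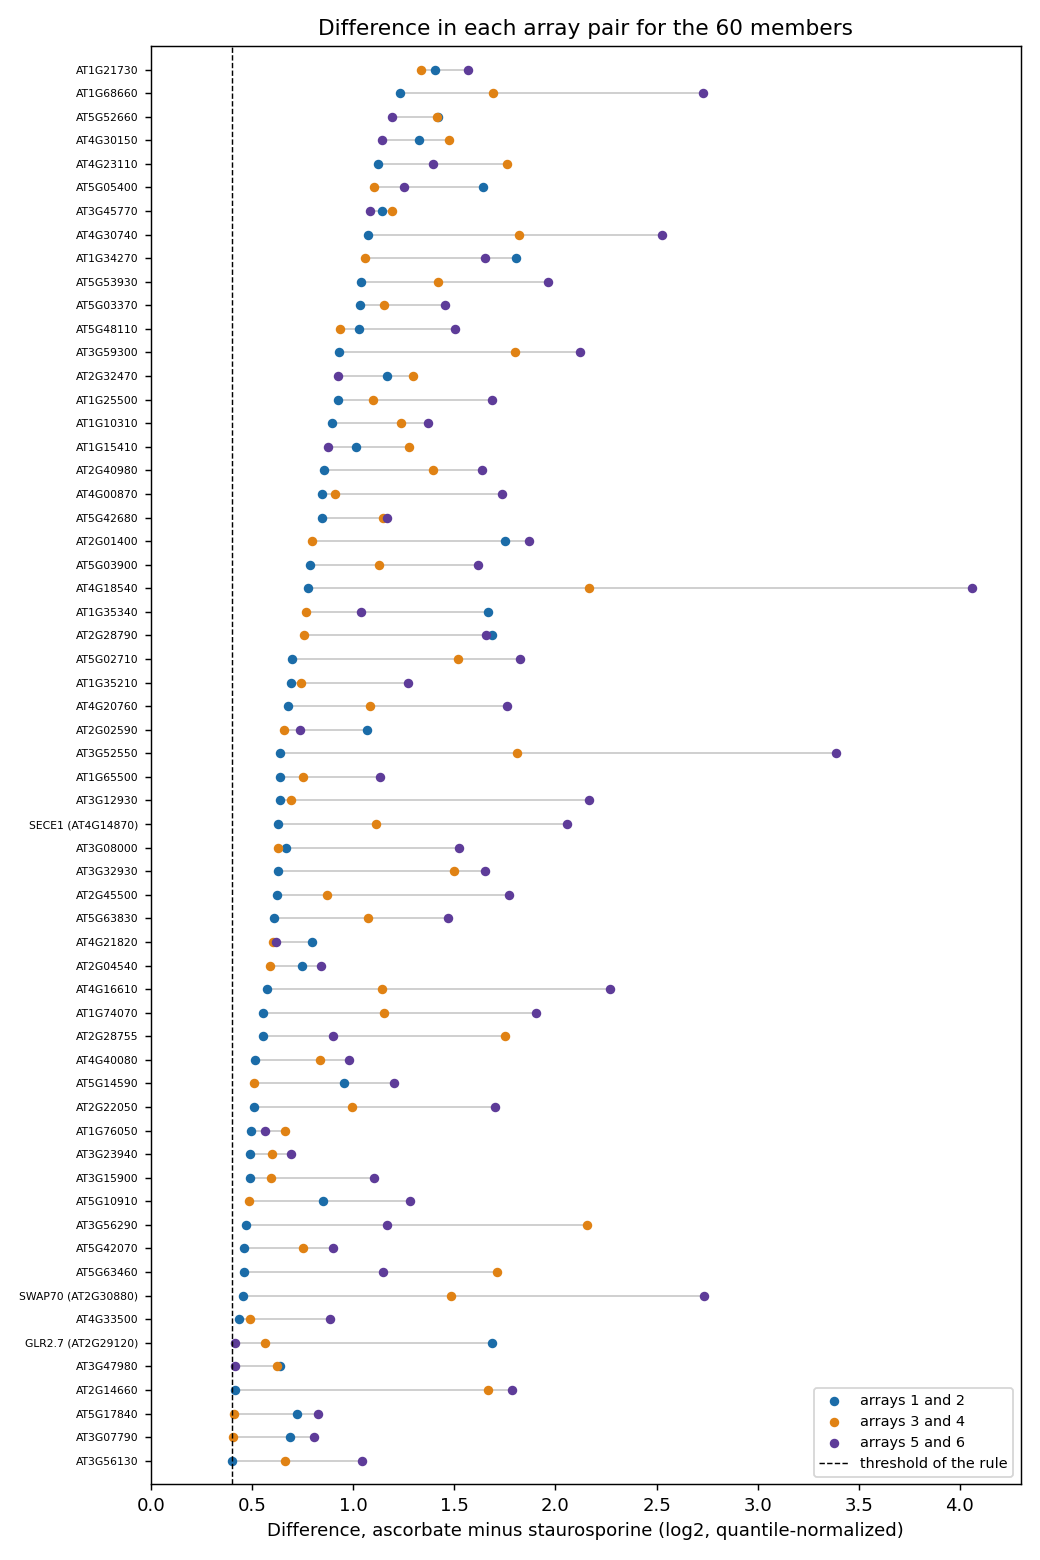
Difference of each member (rows) in the 3 array pairs (blue, orange and purple points; horizontal axis, log2, ascorbate minus staurosporine), ordered by the smallest of the 3; the grey line spans the 3 values. All points lie at or right of the dashed threshold of 0.4, and for 42 of the 60 members the rightmost point is that of arrays 5 and 6.

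Ranked by their smallest difference, the first 12 members are led by AT1G21730. In 10 of these 12, every ascorbate reading exceeded every staurosporine reading in deposited intensity, as was the case for 13.0% of all 3438 features, a share from which nothing is read because the rule used the same contrast. Its intensity ran from 0.323 to 0.563 on the ascorbate arrays (median 0.529), against 0.0487 to 0.160 on the staurosporine arrays (median 0.109). The groups did not overlap, with pair averages of 0.489 ± 0.0659 and 0.108 ± 0.0404 (SD, n = 3 each). The differences were 1.41, 1.33 and 1.57 in the 3 pairs. After normalization the ranges overlapped, because ascorbate array 2 took −2.08 and staurosporine array 3 took −1.94.

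AT1G68660 read 0.370 to 0.649 on the ascorbate arrays (median 0.494) and 0.0117 to 0.222 on the staurosporine arrays (median 0.0899). The groups did not overlap, and the lowest readings, 0.0117 and 0.0241, were on staurosporine arrays 4 and 6, whose partners in the pair read 0.0980 and 0.0818. Its differences were 1.23, 1.69 and 2.73, the larger ones in the pairs that hold these dim readings.

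AT4G30740 read 0.816 to 1.01 on the ascorbate arrays (median 0.879) and 0.0888 to 0.428 on the staurosporine arrays (median 0.118). Readings of 0.389 and 0.428 on staurosporine arrays 1 and 2 stood above the 0.0888 to 0.129 of staurosporine arrays 3 to 6, while the 6 ascorbate readings stayed close to each other. The differences were 1.07, 1.82 and 2.52.

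In AT3G45770, AT5G52660, AT4G30150 and AT5G03370 the 3 differences lay within 0.5 of each other. AT3G45770 differed by 1.14, 1.19 and 1.08, which at 0.11 was the narrowest span among the 60. It read 0.464 to 0.696 on the ascorbate arrays (median 0.512) and 0.0884 to 0.229 on the staurosporine arrays (median 0.132), with no overlap. AT5G52660 read 0.194 to 0.290 on the ascorbate arrays (median 0.231) and 0.0183 to 0.0964 on the staurosporine arrays (median 0.0407). These readings did not overlap, although they did after normalization, and the differences were 1.42, 1.42 and 1.19. AT4G30150 differed by 1.32, 1.47 and 1.14, at pair averages of 0.814 ± 0.122 with ascorbate and 0.238 ± 0.135 with staurosporine. AT5G03370 differed by 1.03, 1.15 and 1.45, and its highest ascorbate readings, 0.950 and 0.733, were on arrays 5 and 6, above the 0.410 to 0.531 of ascorbate arrays 1 to 4.

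AT4G23110 had nearly equal ascorbate pair averages (0.780 ± 0.0190), against 0.211 ± 0.128 with staurosporine, and differences of 1.12, 1.76 and 1.4. AT5G05400 averaged 0.573 ± 0.116 with ascorbate and 0.144 ± 0.0619 with staurosporine, with differences of 1.64, 1.1 and 1.25. AT1G34270 averaged 0.734 ± 0.0982 and 0.175 ± 0.0459, with differences of 1.80, 1.06 and 1.65. For these 3 loci no ascorbate reading fell among the staurosporine readings, before or after normalization.

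Of the 12, AT5G53930 and AT5G48110 overlapped between the groups. AT5G53930 read 0.159 to 0.50 on the ascorbate arrays (median 0.396) and 0.00568 to 0.246 on the staurosporine arrays (median 0.0753). Its low ascorbate readings, 0.159 and 0.176 on arrays 3 and 4, lay under the 0.246 and 0.20 of staurosporine arrays 1 and 2, although each exceeded both staurosporine readings of its own pair. AT5G48110 read 0.243 to 0.752 with ascorbate (median 0.575) and 0.0452 to 0.430 with staurosporine (median 0.109), with ascorbate array 4, at 0.243, under staurosporine arrays 1 and 2, at 0.430 and 0.256.

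**Figure D3:**
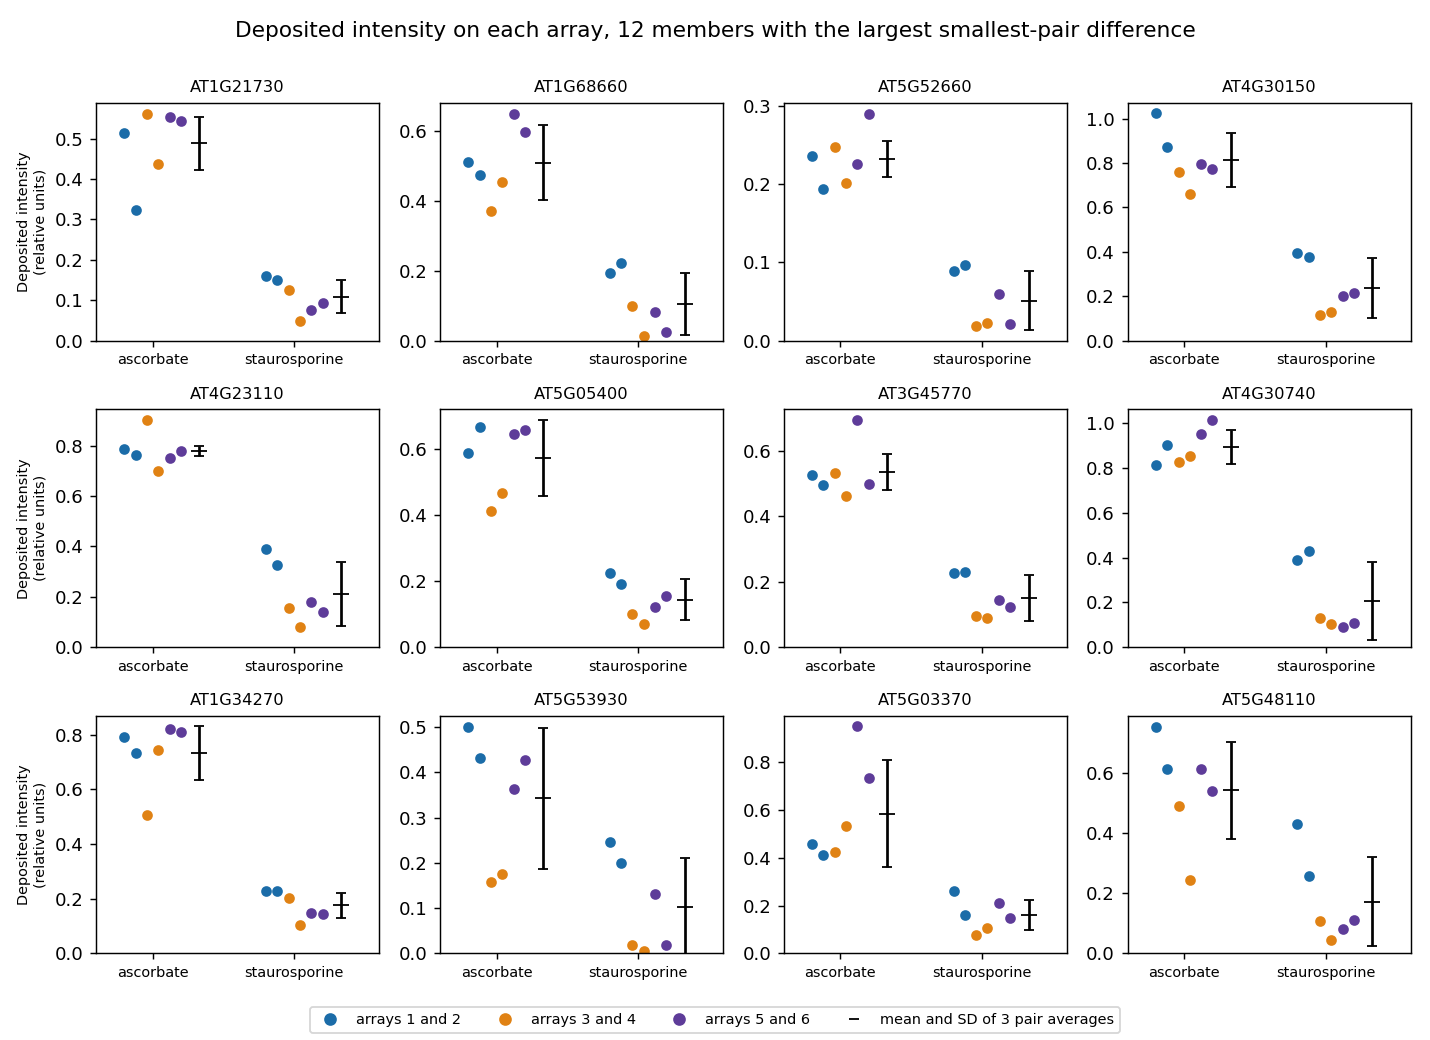
Deposited intensity (vertical axis, relative units, starting at 0, a scale of its own in each panel) of the 12 members with the largest smallest difference, on the 6 ascorbate arrays (left) and the 6 staurosporine arrays (right), coloured by array pair; the black bar is the mean and SD of 3 pair averages. Ascorbate readings lie above staurosporine readings without overlap in 10 panels, and in AT5G53930 and AT5G48110 the groups overlap.

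The annotated members all lay lower in that order, and they were singled out for their symbols after their values were seen. SECE1 read 0.677 to 1.22 on the ascorbate arrays (median 0.850) and 0.170 to 0.556 on the staurosporine arrays (median 0.192). The groups did not overlap, and staurosporine arrays 1 and 2, at 0.556 and 0.495, were the high ones of their group. Its pair averages were 0.914 ± 0.244 and 0.296 ± 0.199, and its differences were 0.63, 1.11 and 2.06.

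SWAP70 read 0.462 to 0.744 on the ascorbate arrays (median 0.533) and 0.0453 to 0.518 on the staurosporine arrays (median 0.0639). The groups overlapped through staurosporine array 2 alone, whose 0.518 compares with 0.252 on its partner array 1 and at most 0.0691 on arrays 3 to 6. The differences of SWAP70 were 0.46, 1.48 and 2.73.

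GLR2.7 ran the other way across the pairs, with its largest difference, 1.69, in arrays 1 and 2 and smaller ones of 0.56 and 0.42 in the other pairs. On ascorbate arrays 1 to 6 it read 1.96, 2.08, 0.693, 0.539, 0.991 and 1.24. On staurosporine arrays 1 to 6 it read 0.659, 0.689, 0.270, 0.183, 0.727 and 0.713. Both groups were lowest on arrays 3 and 4, and the ranges overlapped over the group as a whole while each ascorbate reading exceeded the staurosporine readings of its own pair.

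Of the 4 members with the highest mean intensity, GLR2.7 is one. AT3G07790 read 1.37 to 1.75 on the ascorbate arrays (median 1.62) and 0.828 to 1.2 on the staurosporine arrays (median 1.02). The groups did not overlap, but its ratio of group means, 1.57, was the lowest of the 60, and on median-centred values its change was −0.10, against 0.63 after quantile normalization. AT3G32930 averaged 1.56 ± 0.107 with ascorbate and 0.634 ± 0.429 with staurosporine, where arrays 1 and 2 read 1.1 and 1.15 and arrays 3 to 6 read 0.331 to 0.427. AT1G15410 averaged 1.29 ± 0.0686 with ascorbate and 0.558 ± 0.180 with staurosporine, with differences of 1.02, 1.28 and 0.87. After median centring the smallest pair difference lay below 0 for AT3G07790 (−0.50), GLR2.7 (−0.47) and AT1G15410 (−0.09), and for no other member. Brightness depends on the probe and does not order these genes by transcript number.

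Members fell into 3 patterns by how far apart their 3 differences lay, a division made after the values were seen. In 21 members the differences lay within 0.5 of each other, and their medians were 0.80, 0.75 and 0.90 in the 3 pairs. Beside AT1G21730, AT5G52660, AT4G30150, AT3G45770, AT5G03370, AT1G15410, AT5G17840 and AT3G07790, this group holds AT2G32470, AT1G10310, AT5G42680, AT2G02590, AT1G65500, AT4G21820, AT2G04540, AT4G40080, AT1G76050, AT3G23940, AT5G42070, AT4G33500 and AT3G47980. AT2G02590, picked out after its values were seen, read 0.448 and 0.630 on staurosporine arrays 1 and 2, and 0.436 to 0.480 on arrays 3 to 6. It averaged 1.04 ± 0.0508 with ascorbate and 0.486 ± 0.0499 with staurosporine (SD, n = 3 pair averages each), and its readings ran from 0.877 to 1.31 and from 0.436 to 0.630. Its deposited log2 differences were 1.01, 1.17 and 1.13 in the 3 pairs, against 1.07, 0.66 and 0.74 after normalization.

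In 18 members the differences lay 0.5 to 1 apart, with medians of 0.89, 0.92 and 1.49. These were AT4G23110, AT5G05400, AT1G34270, AT5G53930, AT5G48110, AT1G25500, AT2G40980, AT4G00870, AT5G03900, AT1G35340, AT2G28790, AT1G35210, AT3G08000, AT5G63830, AT5G14590, AT3G15900, AT5G10910 and AT3G56130. AT3G56130, at the threshold with 0.40, 0.66 and 1.04, had deposited readings that were close within each pair. They ran from 0.497 to 0.574 with ascorbate. With staurosporine they were 0.355 and 0.381 on arrays 1 and 2 and 0.129 to 0.155 on arrays 3 to 6, of lower array median. After normalization, staurosporine arrays 1 to 4 were alike, at −1.78 to −1.68, and arrays 5 and 6 took −2.33 and −2.31.

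In the last 21 members the differences lay over 1 apart, with medians of 0.63, 1.5 and 1.87, and 19 of them had their smallest difference in arrays 1 and 2. AT4G18540 spanned most, with 0.78, 2.17 and 4.06. It read 0.326 to 0.820 on the ascorbate arrays (median 0.398) and 0.00850 to 0.332 on the staurosporine arrays (median 0.0360). Staurosporine array 2, at 0.332, overlapped the ascorbate range, and the group ratio of 5.35 was the highest of the 60. AT3G52550, with 0.64, 1.81 and 3.39, did not overlap, at 0.836 to 1.48 with ascorbate and 0.0759 to 0.722 with staurosporine. AT3G56290 had its largest difference in arrays 3 and 4 (0.47, 2.16 and 1.17), as had AT2G28755 (0.55, 1.75 and 0.90) and AT5G63460 (0.46, 1.71 and 1.15). The rest of this group are AT1G68660, AT4G30740, AT3G59300, AT2G01400, AT5G02710, AT4G20760, AT3G12930, SECE1, AT3G32930, AT2G45500, AT4G16610, AT1G74070, AT2G22050, SWAP70, GLR2.7 and AT2G14660.

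Several further members show how a group overlapped or did not. AT4G21820 read 0.597 to 0.668 on 5 ascorbate arrays and 0.204 on array 3, against 0.0995 to 0.350 on the staurosporine arrays, so that 1 reading made the groups overlap. AT3G47980 read 0.226 to 0.486 on the ascorbate arrays (median 0.386) and 0.0838 to 0.274 on the staurosporine arrays (median 0.138), with staurosporine array 2 above ascorbate array 1. AT3G23940 averaged 0.368 ± 0.0725 with ascorbate and 0.140 ± 0.0666 with staurosporine, and ascorbate array 2, at 0.224, lay under staurosporine array 2, at 0.241. These 3 overlapped on both scales.

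Other members were separated by deposited intensity in all 12 readings. AT2G32470 averaged 0.542 ± 0.0432 with ascorbate and 0.152 ± 0.0568 with staurosporine, with differences of 1.17, 1.29 and 0.93. AT5G63830 had ascorbate pair averages that barely varied, at 0.656 ± 0.0164, against 0.229 ± 0.159 with staurosporine, where arrays 1 and 2 read 0.452 and 0.370 and arrays 3 to 6 read 0.107 to 0.174. AT5G42070 had the same shape at 0.726 ± 0.0381 with ascorbate and 0.328 ± 0.180 with staurosporine. In both, the ascorbate pair averages varied less than the staurosporine ones. After normalization, AT5G63830 took −1.76 to −1.43 on staurosporine arrays 1 to 4, and −2.57 and −2.39 on arrays 5 and 6.

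In other members the ascorbate pair averages of deposited intensity varied more. AT2G01400 averaged 0.463 ± 0.175 with ascorbate and 0.0972 ± 0.0369 with staurosporine, with its highest ascorbate readings, 0.542 and 0.754, on arrays 5 and 6. AT1G35340 averaged 0.415 ± 0.117 with ascorbate and 0.113 ± 0.0265 with staurosporine, again with its highest ascorbate readings, 0.525 and 0.574, on arrays 5 and 6. Their differences were 1.75, 0.80 and 1.87 for AT2G01400 and 1.67, 0.76 and 1.04 for AT1G35340, so that both were smallest in arrays 3 and 4. After normalization, AT1G35340 took −4.54 on staurosporine array 2 and −2.80 to −2.24 on the other staurosporine arrays. Its ascorbate values ran from −2.10 to −1.27, so on that scale its staurosporine values spread more widely. AT4G20760 read 0.918 and 1.18 on ascorbate arrays 5 and 6 and 0.431 to 0.614 on ascorbate arrays 1 to 4, against 0.0377 to 0.321 on the staurosporine arrays.

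Over all members the median difference was 0.76 in arrays 1 and 2, 1.09 in arrays 3 and 4 and 1.38 in arrays 5 and 6, beside −0.026, 0.14 and 0.065 over the 451 eligible loci. The smallest difference fell in arrays 1 and 2 for 38 members, in arrays 3 and 4 for 15 and in arrays 5 and 6 for 7. Differences of at least 2 were found for 9 members in arrays 5 and 6, for 2 in arrays 3 and 4 and for none in arrays 1 and 2. The largest difference fell in arrays 5 and 6 for 42 of the 60 members and for 140 of the other 391 eligible loci. The SD of the normalized log2 pair averages was larger for staurosporine than for ascorbate in 41 of the 60 members and in 169 of the other 391 eligible loci. In deposited intensity the SD was larger for staurosporine in 31 members and in 233 of the other loci, so this pattern depended on the scale. Within staurosporine, arrays 1 and 2 held the highest normalized pair average for 35 members and 147 other loci, and arrays 5 and 6 the lowest for 33 members and 133 other loci. Among the ascorbate pairs, arrays 5 and 6 were highest for 30 members. That count, and those of smallest differences and of differences of at least 2, were not made for the other loci. Whether they are particular to the members is thus not shown.

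**Figure D4:**
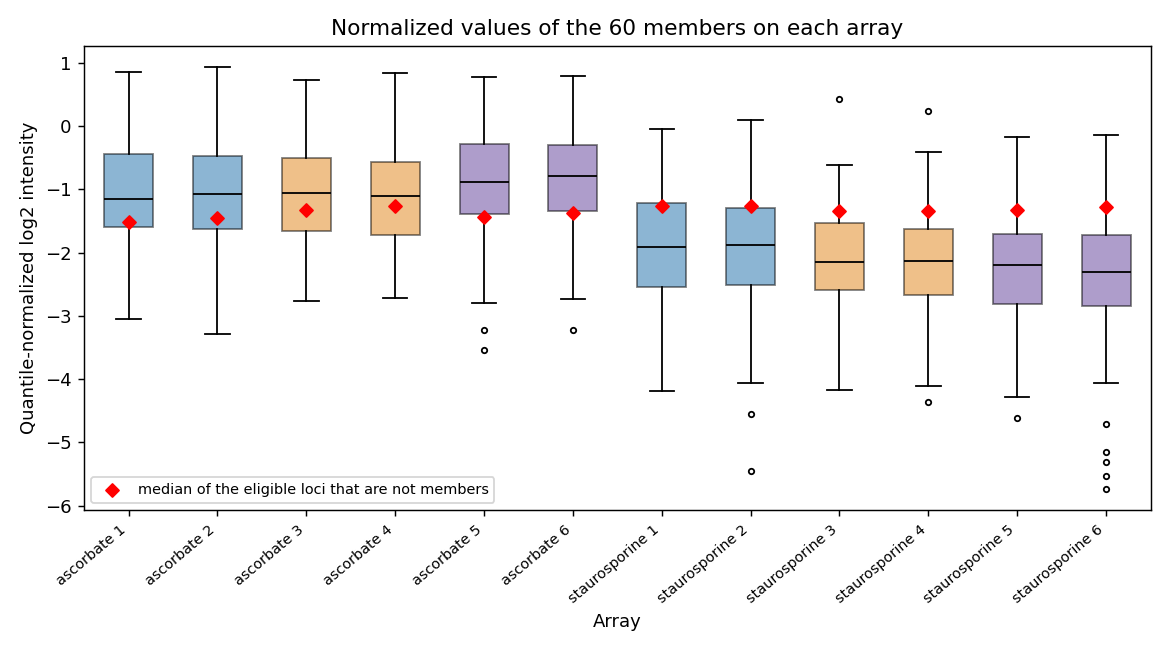
Quantile-normalized log2 intensity (vertical axis) of the 60 members on each array, ascorbate arrays on the left and staurosporine arrays on the right, as box plots (line, median; box, quartiles; whiskers, to 1.5 box lengths; circles, beyond), with the median of the other 391 eligible loci as a red diamond. The members' medians run from −1.15 to −0.80 on the ascorbate arrays, above the diamonds, and from −2.30 to −1.88 on the staurosporine arrays, below them.

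On each array the members' median can be set beside that of the eligible loci that are not members. Members had medians of −1.15, −1.08, −1.06, −1.11, −0.89 and −0.80 on ascorbate arrays 1 to 6, where the other loci had −1.51, −1.45, −1.32, −1.26, −1.44 and −1.38. On staurosporine arrays 1 to 6 members had medians of −1.91, −1.88, −2.14, −2.13, −2.19 and −2.30, where the other loci had −1.27, −1.27, −1.34, −1.35, −1.32 and −1.27. The median member ranked above 61.8% to 70.4% of all features on the ascorbate arrays and above 35.9% to 44.5% on the staurosporine arrays. Members thus stood above the other loci with ascorbate and below them with staurosporine, as the choice of members made likely, and the gap was widest on arrays 5 and 6 in both groups.

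Consecutive arrays also differed for the same member. The absolute gap of normalized log2 values between the 2 arrays of a pair was summarised for each member by its median over 3 pairs, and the median member stood at 0.24 with ascorbate and 0.26 with staurosporine. Each member has 6 such gaps. The smallest pair difference exceeded all of them in 32 of the 60 members, and the mean difference did so in 47. The widest gap, 3.41, belonged to AT5G53930 on staurosporine arrays 5 and 6, which read 0.132 and 0.0178.

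On the deposited scale, with no normalization, all 60 members were higher with ascorbate in each pair. The ratio of the group means of intensity ran from 1.57 to 5.35 with a median of 3.08, and it was at least 2 for 58 members, all but AT3G07790 and AT3G15900. The same ratio had a median of 1.43 over the 391 other eligible loci. The deposited log2 difference of the members had medians of 0.81, 2.19 and 2.25 in the 3 pairs, where all features had 0.18, 0.91 and 1.02. The members' median thus exceeded that of all features in each pair, but AT3G07790 (0.55 and 0.80) lay under it in the last 2 pairs, as did GLR2.7 (0.62) and AT1G15410 (1.01) in arrays 5 and 6. In deposited intensity, all 6 ascorbate arrays exceeded all 6 staurosporine arrays for 41 members, beside 13.0% of all 3438 features. In normalized values they did so for 38 members, beside 8.52% of all features, and 34 members did so on both scales, while 15 overlapped on both. Nothing is read from these shares, for the reason given above.

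**Figure D5:**
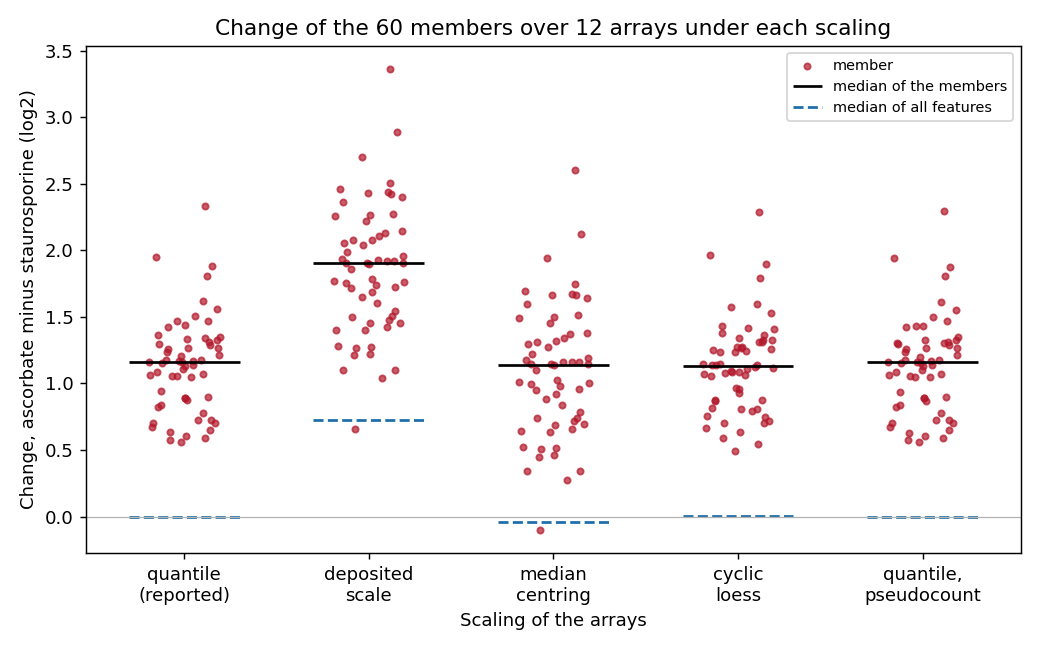
Change of each member over the 12 arrays (vertical axis, log2, ascorbate minus staurosporine) under 5 scalings of the arrays, with the members' median as a black line and the median of all features as a dashed blue line. The members' median lies between 1.13 and 1.16 except on the deposited scale, where it is 1.90 and the median of all features 0.72, and AT3G07790 lies under 0 after median centring.

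With limma over the 12 arrays, 55 members were called higher with ascorbate (adjusted p under 0.05 over all features), beside 14.0% of all features, and none was called lower, beside 14.1%. The split of all features depended on the scaling, with 480 higher and 486 lower as reported, 1093 higher and 208 lower on the deposited scale, and 515 higher and 755 lower after median centring. The 5 members not called were GLR2.7, AT5G53930, AT3G47980, AT3G23940 and AT4G21820. With array number as a block 56 were called higher, beside 12.6%, which adds GLR2.7 and AT3G47980 and leaves out AT3G12930. Taking each pair of consecutive arrays as 1 sample left 4 members called, AT5G05400, AT4G23110, AT3G45770 and AT4G30150, beside 0.902% of all features. Members had been chosen on this contrast, so these counts describe the choice and support nothing, and their p-values rest on array-to-array spread, which may be technical.

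Position, brightness, keywords and likeness add little to the description. Members came from all 5 chromosomes by their locus tags, with 11, 12, 12, 11 and 14 of the 110, 86, 86, 80 and 88 eligible loci (1 eligible locus, DAL1, was not matched to the annotation and not placed). By mean intensity they were spread over the eligible loci, with 10, 22, 17 and 11 members in 4 equal bins from dimmest to brightest. No 2 members were neighbouring protein-coding genes in the annotation, and a single pair, AT2G28755 and AT2G28790, lay within 10 genes of each other. Keyword classes of function could not sort them, since no member's symbol or synonym held a keyword. The members whose normalized values followed those of AT1G21730 most closely over the 12 arrays were AT3G45770 (Spearman rho 0.90), AT1G34270 (0.85) and AT2G28790 (0.83). Over all pairs of members the median rho was 0.73. These values rest in part on the group difference that the choice of members required.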

How the data were processed

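The authors deposited linear intensities from 0 to 100. Their reference, and how they were scanned, background-corrected or normalized, was not stated in any source used. Of 692 probes listed with 1 gene, 690 matched the TAIR10.1 annotation by Entrez number and 2 kept the platform's name. They stand for 691 loci. Zeros were set to the array's smallest positive value, log2 was taken, all probes were quantile-normalized and probes of a locus averaged, leaving 3438 features. The members, lists and tests were chosen with earlier results of these data known. Named genes were the 12 members with the largest smallest pair difference, 4 on each side of the threshold and the 4 brightest; others were added after their values were seen.

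The 2 groups were fitted without a block in limma 3.58.1 (R 4.3.3), with Benjamini-Hochberg adjustment over all features. The fit was also run on simulated arrays, drawn independently of each other and with a reduced spread. That run cannot show how the fit behaves where consecutive arrays are alike, as they are here. Deviations of same-numbered arrays correlated across the groups (0.184, 0.182, 0.315, 0.347, 0.106 and 0.157 for numbers 1 to 6), each over 0.1. Correlations of differently numbered arrays are not given, so these values do not show a pairing by number, and the labels give none. A fit with array number as a block was made beside the reported fit, which has none. Alternatives were other scalings, a pseudocount, a filter on dim features, array number as a block, averaged pairs, other thresholds and each array left out. Promoter motifs and sequences were not analysed here. The number of arrays limits the precision.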

Additional observations from a re-analysis of the deposited data

Results flagged for a closer look

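Over 64 loci (the members and the 4 just outside the threshold), 128 groups of 6 arrays were examined for a deposited reading far from the others, and 8 were found. Chance alone would mark about 5% of groups of independent readings. Consecutive arrays were alike here and array medians differed, so that rate need not hold and nothing is read from the count. On the ascorbate arrays, AT3G45770 read 0.696 on array 5 (nearest other 0.532), AT1G34270 read 0.507 on array 3 (nearest 0.731), AT4G21820 read 0.204 on array 3 (nearest 0.597) and AT4G33500 read 0.423 on array 4 (nearest 0.585). On the staurosporine arrays all 4 were on array 2, where AT4G18540 read 0.332 (nearest 0.125), AT2G02590 0.630 (nearest 0.480), AT4G16610 0.448 (nearest 0.186) and AT3G47980 0.274 (nearest 0.151). Each of these 4 was the highest staurosporine reading of its gene, and its partner array 1 did not share it.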

How the results depend on the processing

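The number of arrays and the dimness of many readings limit these results. On the deposited scale 1093 features were called higher and 208 lower (limma), 113 loci met the rule, among them 59 of the 60 members, and the members' median change was 1.90, against 480, 486, 60 and 1.16 as reported. Median centring called 755 features lower, and turned AT3G07790 to −0.10. Averaging consecutive arrays left 31 features higher and 22 lower, with 4 members called. With array number as a replicate block, 432 features and 56 members were called higher, and no count moved by over 1.5 times. Leaving out each array gave 402 to 481 features higher, 387 to 497 lower, 52 to 55 members called, 54 to 61 loci meeting the rule and a median change of 1.09 to 1.2. The rule kept 44 of the 60 members under median centring (54 loci), 53 under loess (58 loci) and 60 with a pseudocount. Without dim features it kept 56 of the 57 members still measured. A threshold of 0.3 gave 66 loci, 0.5 gave 45, and loci with zeros raised the count to 83. Arrays 1 and 2 alone, a choice made after seeing the data, gave a median change of 0.76, and the other 8 arrays gave 1.3.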
